A study of Ettlia oleoabundans with 10 samples.

Results

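A set of 70 of the 10122 scaffold families measured in the green alga Ettlia oleoabundans was at least 2-fold higher in each of the 3 cultures lowest in nitrate than in any of the 3 cultures with more nitrate. The members were selected on the deposited expression values themselves. With L as log2(value + 1), a member had L at 0, 0.38 and 0.75 mM nitrate each at least 1 above its highest L at 1.5, 3 and 9 mM. The rule also removed a family if the libraries of 300 and 600 mM NaCl were both at least 1 above that same highest value. Of all families, 99 met the nitrate part, which is 0.978% of those measured, and the NaCl part removed 29 of them. The separation of low from high nitrate is thus how the set was chosen and is given below as a description, with no test.

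The study grew strain UTEX # 1185 on light alone for 6 days at 25 °C in Bold Basal Medium, modified and supplemented with vitamins, starting at 1000000 cells per ml. Each of 10 conditions was represented by 1 culture and 1 library of poly(A)-selected RNA: nitrate at 0, 0.38, 0.75, 1.5, 3 or 9 mM, and NaCl at 75, 150, 300 or 600 mM. Both series share a control culture, which had 9 mM nitrate with 42 mM NaCl. The labels state no NaCl for the other nitrate cultures and no nitrate for the other NaCl cultures. The libraries of 1.5, 3 and 9 mM nitrate are called the reference libraries here, and the span of their values in a family its reference range. Counts of families above or below that range take those at least 2-fold above its top or 2-fold below its bottom, on the log2(value + 1) scale. With 1 library per condition there is no replicate error and no test between conditions, so every difference below compares single libraries. Levels are relative to the RNA of a whole culture, in which a change in RNA per cell cannot be told apart from a change in the mix of transcripts.

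Nitrate is the main nitrogen source of many green algae in culture. It is taken up by transporters, reduced to nitrite and then ammonium by nitrate and nitrite reductase, and built into glutamine by glutamine synthetase. When nitrogen runs short, such algae slow their growth, recycle protein and pigment nitrogen, and many store starch and oil; E. oleoabundans is known for its oil under these conditions. The deposited table identifies families by numbers only, without gene names or sequences, so none of the 70 members can be assigned to these steps here.

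The values were taken as relative expression levels. Scaling for feature length was judged from the values alone, scaling for library depth is not stated in the sources used here, and the read depth is not known. Library totals lay between 362924.25 and 695912.6. Between 380 and 1263 families were listed at 0 in a library. Over the 8445 families above 0 everywhere, the median log2 ratio to the control was 0.23, 0.42, 0.25 and 0.07 at 75, 150, 300 and 600 mM NaCl. With 0, 0.38, 0.75, 1.5 and 3 mM nitrate it was 0.20, -0.06, 0.10, 0.00 and 0.10. These shifts over all families bear on every count of members given for those libraries. Titles with RAA codes mark the 0.38 mM nitrate library and the 150 mM NaCl library, whereas the other 8 carry codes c1 to c8. The sources used here do not say what the codes mean.

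As a set, the members went from modest to high levels. Their median expression value was 9.305 at 1.5 mM nitrate, 8.3 at 3 mM and 8.94 in the control, below the median of all families, which was 14.81 in the control. At 0.75 mM the members' median was 51.78, at 0.38 mM it was 62.58 and at 0 mM it was 57.05, against 16.01, 14.15 and 16.37 for all families. In 5 members (7.14%) every value at 1.5, 3 and 9 mM nitrate was under 1.2, against 14.2% of all families, a limit chosen after the values were seen. The 14.2% were mostly low families, since the share was only 0.714% in the 7698 families that averaged 5 or more over all libraries. Of the 5 members, 743_c0, 5938_c0 and 7596_c0 averaged 5 or more. The lowest member value in the 3 low-nitrate libraries was 1.59 and the highest was 2090.66. In the NaCl libraries the members' median stayed at 14.25 (75 mM), 14.17 (150 mM), 10.78 (300 mM) and 7.685 (600 mM).

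**Figure D1:**
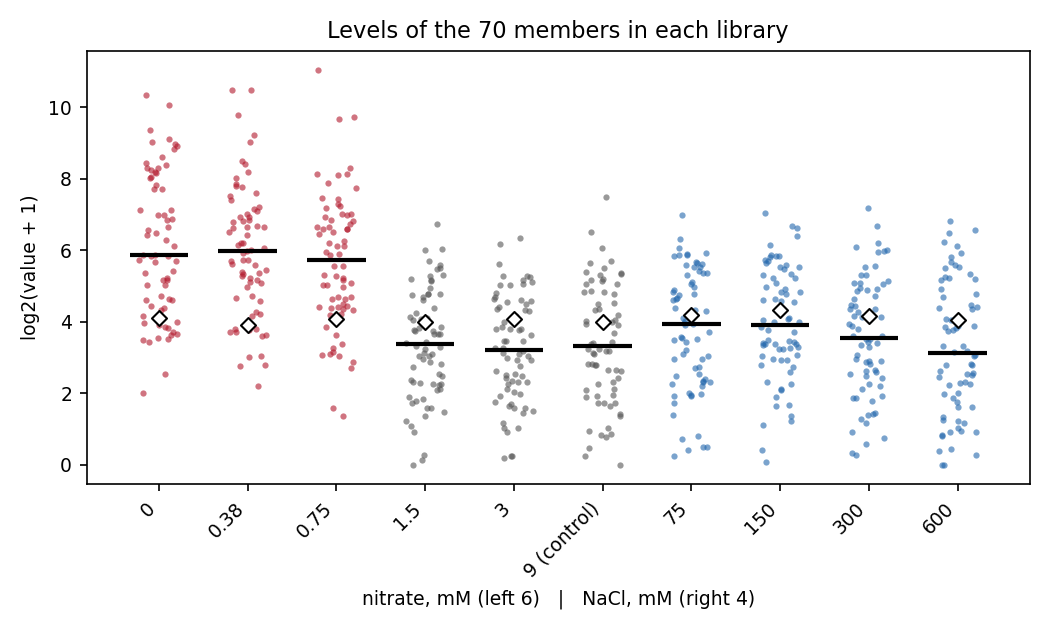
Expression of the 70 members in each library, as log2(value + 1), with nitrate at left and NaCl at right. Points are families, black bars are the members' median value and open diamonds the median value of all 10122 families; the members' bars lie above the diamonds at 0, 0.38 and 0.75 mM nitrate and below them in the other 7 libraries.

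The members together held 1.94% of the library total at 0 mM nitrate, 2.85% at 0.38 mM and 1.87% at 0.75 mM. In the other 7 libraries they held between 0.196% (3 mM nitrate) and 0.291% (150 mM NaCl). None of the 70 was among the 50 most abundant families over all libraries. A large part of the sum came from few members: the 5 with the highest mean at low nitrate made up 48.3% of it at 0.75 mM and 32.0% at 0 mM. Without these 5, the remaining members held 1.32% at 0 mM, 1.59% at 0.38 mM and 0.965% at 0.75 mM, against 0.230% in the control. The rule required every member to be higher at low nitrate, so larger shares there, with or without the 5, follow from the selection.

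On the log2(value + 1) scale, the mean of the 3 low-nitrate libraries exceeded that of the 3 higher ones by a median of 2.05, a 4.14-fold difference, with a range over members of 1.31 to 8.85. The same median over all families was 0.04. The gap used by the rule, from the lowest low-nitrate library to the highest of the others, had a median of 1.38, and 39 of the 70 members had a gap under 1.5. Within the 3 higher-nitrate libraries the members spanned a median of 0.38 (1.3-fold), and all families spanned 0.33. That span is the nearest thing to a yardstick of spread in these data, though the 3 cultures differed in nitrate and were not replicates.

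The values at the edge of the rule were continuous with those beyond it. Family 1371_c0 had the smallest gap, 1.006, with 656.1, 221.47 and 212.74 at 0, 0.38 and 0.75 mM nitrate against 80.81 to 105.46 at the 3 higher concentrations. The next was 6086_c0 with a gap of 1.007. Just outside were 6653_c0 at 0.999 and 2506_c0 at 0.998, which had also been at least 2-fold above the range at 300 and 600 mM NaCl, with values of 46.31 and 28.24 for 6653_c0 against 6.36 in the control. At the edge of the NaCl part, the lower of the 300 and 600 mM libraries was 0.998 log2 units above the highest reference library in the member 2722_c0, with 66.94 and 55.52 in these libraries against 27.3 in the control. Among the removed families 11800_c0 was the nearest to the limit, at 1.037. With scaling by median ratios 65 families met the whole rule, 61 of them among the 70, and with a pseudocount of 5 in place of 1 the number was 45.

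**Figure D2:**
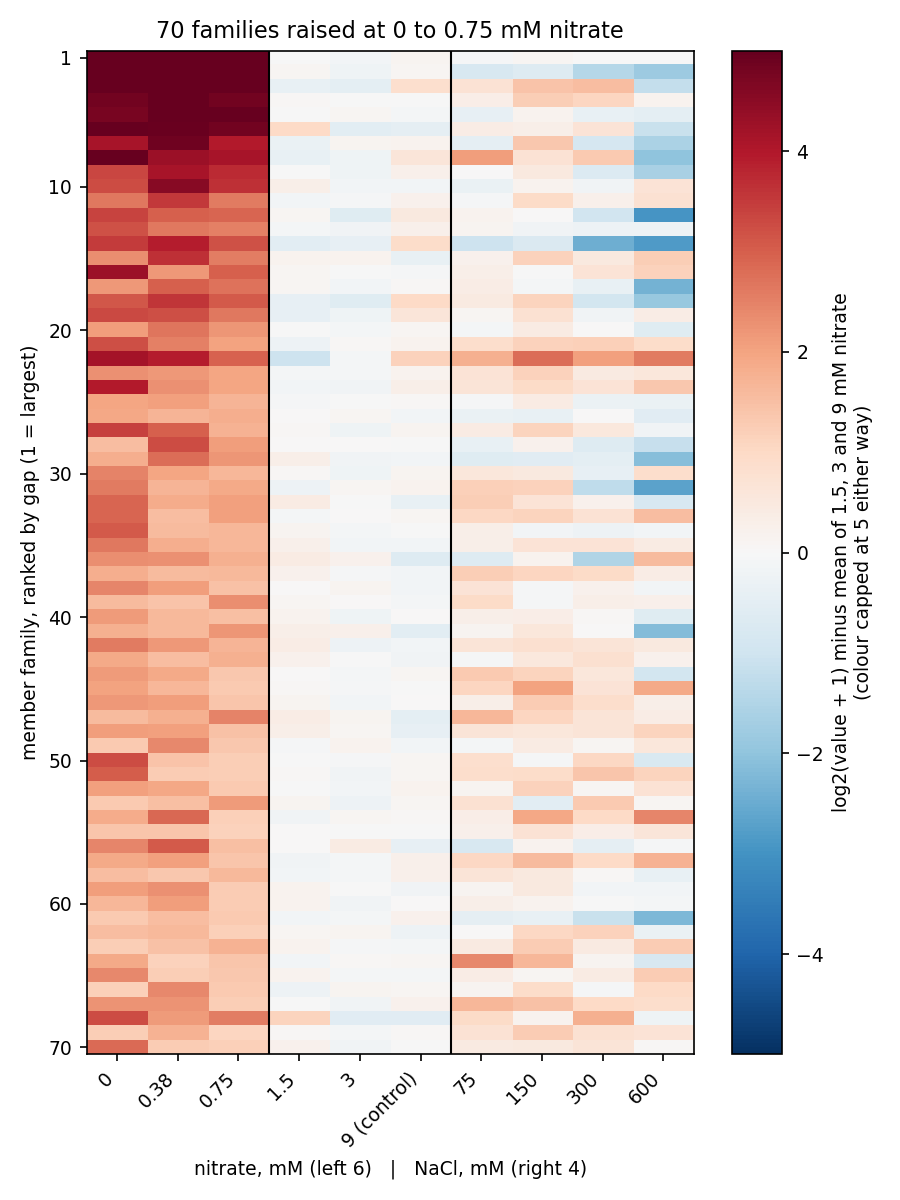
Level of each of the 70 members in each library relative to its own mean at 1.5, 3 and 9 mM nitrate, on the log2(value + 1) scale, with members ranked from the largest gap (top) to the smallest. The left 3 columns are above 0 in every row by the rule, while the NaCl columns at right hold both higher and lower values.

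The 9 members with the largest gaps had gaps of at least 3 log2 units (8-fold). They were 743_c0, 906_c0, 1750_c0, 5938_c0, 7596_c0, 1084_c0, 2407_c1, 1380_c0 and 6099_c0, and this cut was chosen after the values were seen. It marks no break in the values, since 6099_c0 had a gap of 3.091 and the next member, 9117_c0, one of 2.966. The median value of the 9 was 3.96 at 3 mM nitrate and 5.91 in the control, and 237.1, 258.1 and 312.4 at 0.75, 0.38 and 0 mM. At 600 mM NaCl the median of these 9 was 0.9, the lowest of their medians over the 10 libraries. For the other 61 members the control median was 9.72, the medians at 0.75 and 0 mM nitrate were 36.41 and 50.59, and that at 600 mM NaCl was 12.46.

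Family 743_c0 had the largest gap, 7.56 log2 units. It had values of 0.21, 0.14 and 0.38 at 1.5, 3 and 9 mM nitrate, and then 814.14 at 0.75 mM, 882.62 at 0.38 mM and 259.33 at 0 mM. In the 4 NaCl libraries it was 0.18, 0.33, 0.21 and 0.21. It was thus near 0 in 7 libraries and high in 3, with no overlap. Its mean over low nitrate was 462-fold above that over higher nitrate on the scale used, which adds 1 to each value and so understates the ratio of a family this low.

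Family 906_c0 was the most abundant member by its mean over the 3 low-nitrate libraries, the measure used for abundance here. It had 6.03, 4.65 and 6.06 at 1.5, 3 and 9 mM nitrate, and 2090.66 at 0.75 mM, 1433.84 at 0.38 mM and 548.4 at 0 mM. Here the highest level was at the first low concentration and the lowest of the 3 was in the culture with no nitrate. NaCl libraries lay under the control, with 2.78, 3.23, 1.43 and 0.88 from 75 to 600 mM.

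Family 1084_c0 had the opposite slope within low nitrate. Its values of 237.05 and 258.13 at 0.75 and 0.38 mM compare with 1298.79 at 0 mM, the highest value of any member there. It was also the strong member in which 1.5 mM stood apart, with 15.92 against 4.84 and 5.23 at 3 and 9 mM. Family 1750_c0, named after its values were seen as the fifth by mean level at low nitrate, had 278.49, 599.87 and 519.56 at 0.75, 0.38 and 0 mM against 1.84 to 6.07 at higher nitrate.

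Family 533_c0, the member next to 906_c0 in abundance, began from a higher level. It had 64.52 at 1.5 mM nitrate, 71.08 at 3 mM and 178.22 in the control, and 848.34, 1417.94 and 1060.24 at 0.75, 0.38 and 0 mM. Its control value exceeded those at 1.5 and 3 mM more than 2-fold. With NaCl it was 44.97, 56.17, 16.58 and 12.46 from 75 to 600 mM, all under its 3 reference values.

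**Figure D3:**
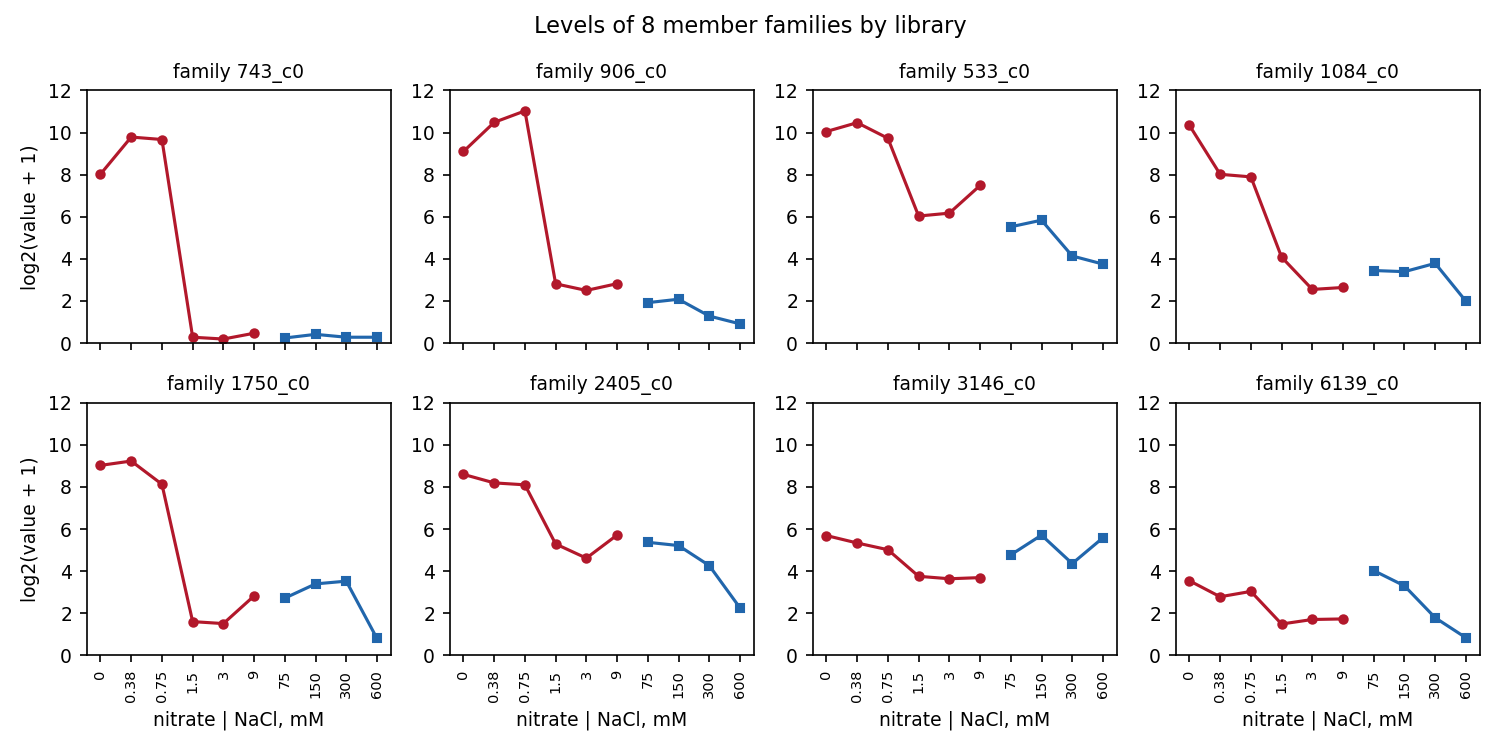
Levels of 8 members by library as log2(value + 1), nitrate in red circles and NaCl in blue squares. Families 743_c0, 906_c0, 1084_c0 and 1750_c0 show the largest steps of the 8 between 1.5 and 0.75 mM nitrate. All of the 8 except 743_c0 and 3146_c0 have their lowest value at 600 mM NaCl. Families 3146_c0 and 6139_c0 reach in an NaCl library the level they have at low nitrate.

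In 43 of 70 (61.4%) the 3 low-nitrate libraries lay within 2-fold of each other, against 63.4% of all families. The median span over these libraries was 0.88 log2 units in the members and 0.78 over all families. At 0 mM the value was higher than at 0.75 mM in 51 members (72.9%), against 53.7% of all families, and with equal library totals in 40 members (57.1%), against 37.9%. The members had a median difference of 0.51 on the log2(value + 1) scale, against 0.07 over all families. At least 2-fold higher at 0 than at 0.75 mM were 13 members (18.6%), against 7.38% of all families, and 2 members (2.86%) were at least 2-fold lower, against 10.5%. All 3 libraries belong to the rule, so these shares describe the members and are not set against chance. With median ratios 10 members (14.3%) were at least 2-fold higher at 0 mM, against 5.88% of all families. With equal library totals 7 members were 2-fold higher and 5 lower at 0 mM, and the shares over all families were not computed.

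The 13 members with more at 0 mM were led by 1084_c0 and 4637_c0. Family 4637_c0 had 32.99 at 0.75 mM, 37.98 at 0.38 mM and 137.43 at 0 mM, against 12.69 to 14.29 at higher nitrate. The median value of the 13 was 114.7 at 0.75 mM and 302.8 at 0 mM, whereas the 55 members within 2-fold had 37.68 and 49.62. The 2 members lower at 0 mM were 906_c0 and 743_c0, which were also those with the largest gaps.

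**Figure D4:**
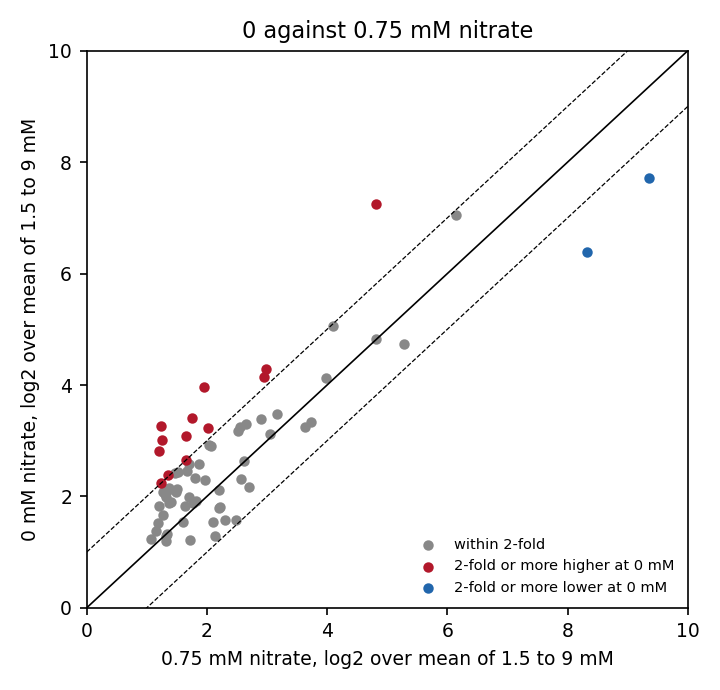
Level at 0 mM nitrate (vertical) against 0.75 mM (horizontal), both as log2(value + 1) minus the mean of 1.5, 3 and 9 mM, for the 70 members. The solid line is equality and dashed lines are 2-fold differences; 13 members lie on or above the upper dashed line and 2 below the lower one.

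The library of 0.38 mM lay between its neighbours in 30 members, namely 25 in the order 0 > 0.38 > 0.75 mM and 5 in the reverse order. The first order held in 35.7% of members and in 13.9% of all families. The highest of the 3 values was at 0 mM in 36 members (51.4%), at 0.38 mM in 26 (37.1%) and at 0.75 mM in 8 (11.4%). Over all families these shares were 44.6%, 21.7% and 28.6%, with ties counted in none. At 0.38 mM, 10 members (14.3%) were at least 2-fold above 0.75 mM, against 4.68% of all families, and 0 were at least 2-fold below it, against 13.9%. Between 0 and 0.38 mM, 11 members (15.7%) were at least 2-fold higher at 0 mM, against 15.9% of all families, and 8 (11.4%) at least 2-fold lower, against 7.64%. The place of the 0.38 mM library, which has an RAA code, depended on scaling. It was the highest in 37 members with median ratios and in 49 with equal library totals. The order 0 > 0.38 > 0.75 mM held in 13 members with equal library totals. That scaling raises all families at 0.38 mM relative to the other libraries, since this library had the lowest total. Shares over all families were not computed for these scaled counts, so they are not read as a trait of the members. The part of the code in these orders was not tested.

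Family 10351_c0 was among the 2 members furthest above their neighbours at 0.38 mM, with 40.23 against 11.48 at 0 mM and 17.42 at 0.75 mM. The other was 9686_c0, with 52.46 against 19.93 and 23.96. Furthest below the mean of the neighbours were 942_c0, with 72.86 against 316.75 at 0 mM and 127.22 at 0.75 mM, and 1084_c0. In 942_c0 the highest value at 1.5 to 9 mM was 16.35, and the 3 low-nitrate values were all above it, as the rule required.

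The library of 1.5 mM, the next concentration up, lay close to the control in most members. The median difference between 1.5 mM and the control was 0.03 on the log2(value + 1) scale, with quartiles of -0.26 and 0.28, against a median of 0.00 over all families. At least 2-fold higher at 1.5 mM than in the control were 3 members, or 4.29%, against 0.622% of all families, and 5 (7.14%) were at least 2-fold lower, against 3.82%. The rule limits how high 1.5 mM can be, so neither share is read further. Furthest above the control at 1.5 mM, among members averaging at least 5, was 1287_c0. It had 63.17 there, against 19.4 and 19.33 at 3 and 9 mM, and 174.73, 128.92 and 282.72 at 0.75, 0.38 and 0 mM. The furthest below were 3294_c0, with 6.27, 13.01 and 32.26 at 1.5, 3 and 9 mM, and 533_c0.

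The rule left room for members that were high with salt, since it removed a family only if 300 and 600 mM NaCl were both high. The counts over all 4 NaCl libraries rest on those 2 libraries and on the reference libraries, all used by the rule, so they are descriptions and their difference from all families is not read. In 34 of 70 members (48.6%) all 4 NaCl libraries lay inside the range over 1.5, 3 and 9 mM nitrate widened 2-fold on each side, against 60.0% of all families. In 26 members (37.1%) at least 1 NaCl library was at least 2-fold above the highest of those 3, against 27.8% of all families. Of the 26, 16 were above in 1 NaCl library, 9 in 2 and 1 in 3. With median-ratio scaling 13 members, and with equal library totals 8, were above in at least 1 NaCl library, and with a pseudocount of 5 the number inside was 55. Shares over all families were not computed for these settings. In 58 members (82.9%) every NaCl value was below every low-nitrate value, against 6.62% of all families, and in 68 (97.1%) the highest of all 10 libraries was a low-nitrate one, against 34.0%. The rule favours both, because it required high values at low nitrate.

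The libraries of 75 and 150 mM NaCl took no part in the rule, although the reference libraries they are compared with did, and all 4 NaCl concentrations share them. At 75 mM, 8 members (11.4%) were at least 2-fold above the reference range, against 4.94% of all families, and 0 of the 63 that were high enough to be called lower were 2-fold below it, against 1.15%. At 150 mM, 13 members (18.6%) were above, against 11.7% of all families, and 0 of 63 below, against 5.85%. With median-ratio scaling 4 members (5.71%) were above at each of these concentrations, against 3.88% of all families at 75 mM and 6.45% at 150 mM. The median difference from the control was 0.34 at 75 mM and 0.69 at 150 mM on the log2(value + 1) scale, against 0.21 and 0.27 over all families. After median-ratio scaling the members' medians were 0.13 and 0.34. In 38 members (54.3%) the 150 mM value exceeded those at both 75 and 300 mM, against 42.3% of all families, and in 11 (15.7%) it was under both, against 30.8%. With median-ratio scaling the first count was 34 members (48.6%), against 32.6%, and the second 17 (24.3%), against 39.8%. That library carries an RAA code, whose part in this was not tested.

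Family 6139_c0 had the largest difference from the control at 75 mM NaCl. Its values from 75 to 600 mM were 15.27, 8.83, 2.44 and 0.78, against 2.31 in the control. Its values at low nitrate, 7.2, 5.87 and 10.64 at 0.75, 0.38 and 0 mM, overlapped with those of mild salt, and its highest value of all was at 75 mM NaCl. Family 10302_c0 was next, with 10.51 at 75 mM against 1.56 in the control and 9.89 to 19.3 at low nitrate.

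Family 3146_c0 was the member at least 2-fold above the range in 3 NaCl libraries. Its values from 75 to 600 mM were 26.31, 51.35, 19.51 and 46.98, against 11.43 to 12.48 in the reference libraries and 31.35 to 50.59 at low nitrate. It stayed in the set because its value at 300 mM was under the 2-fold limit. Family 3294_c0 had 49.93, 102.33, 61.08 and 89.33 from 75 to 600 mM. All 4 were above its control value of 32.26 and below its low-nitrate values of 114.74, 228.47 and 265.91.

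At 300 and 600 mM NaCl the rule capped the number of members above the range, and these counts are descriptions only. At 300 mM, 5 members (7.14%) were at least 2-fold above, against 11.2% of all families, and at 600 mM 11 (15.7%), against 20.1%. At least 2-fold below the range, where the rule set no limit, were 3 of 63 at 300 mM (4.76%), against 6.88% of all families, and 13 of 63 at 600 mM (20.6%), against 11.7%. Across the set, 15 members (21.4%) were at least 2-fold lower at 600 than at 300 mM, against 10.4% of all families, and 5 (7.14%) at least 2-fold higher, against 17.2%. Of the 70, 65 averaged at least 5 over all libraries. Over the 7698 families that did so, 8.11% were at least 2-fold higher at 600 than at 300 mM and 11.7% lower. Their share above the range at 600 mM was under the members' 15.7%, whereas that of all families was over it. Without the 2-fold margin, 19 of the 70 were under every reference value at 300 mM and 28 at 600 mM, against 26.9% and 37.7% of all families. Over every reference value were 37 and 31 of the 70, against 49.8% and 46.6%. These counts lay near the shares of all families and are not read as a trait of the members. With median-ratio scaling 13 members (18.6% of the 70) were again 2-fold below the range at 600 mM, against 10.2% of all families. With a pseudocount of 5 the number was 6. The removed families were all above the range at 600 mM by construction, so none of them could be below it and their removal raises the share of members below. The family highest over the control at 300 mM was 1287_c0, with 100.89 against 19.33, but this was less than 2-fold above its value of 63.17 at 1.5 mM nitrate. The next was 9433_c0, with 9.24 against 2.83.

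The members at least 2-fold below the range in strong salt included some of the most abundant. In the 10 members below in at least 1 NaCl library and above in none, the median value was 11.72 in the control, against 5.72 and 1.705 at 300 and 600 mM, and it was 95.49, 117.2 and 81.41 at 0.75, 0.38 and 0 mM nitrate. A further 3 members were above the range in 1 NaCl library and below it in another. Family 2405_c0 had a control value of 51.49 and values of 40.31, 36.11, 18.2 and 3.77 from 75 to 600 mM. At low nitrate it had 273.45, 291.4 and 386.11, all above the control, whereas all 4 NaCl values were below it. Values of 2405_c0 at 1.5 and 3 mM nitrate, 38.1 and 23.52, were also under the control. Those at 75 and 150 mM NaCl lay inside its reference range, and only the 600 mM value was at least 2-fold below that range. Family 332_c1 had 22.2 in the control, 5.13 at 300 mM and 2.09 at 600 mM, against 94.76 to 136.02 at low nitrate. Its values at 1.5 and 3 mM nitrate, 7.58 and 6.67, were also well under the control.

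Family 6827_c0 was furthest above the control at 600 mM NaCl. It had 21.13 there after 3.78, 7.34 and 1.63 at 75, 150 and 300 mM, and its low-nitrate values were 24.97 to 36.51. The reference libraries had 9.01, 7.65 and 3.83. The 600 mM value was above all 3 of these and under all 3 low-nitrate values, while the 300 mM value was under all 3 reference values.

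**Figure D5:**
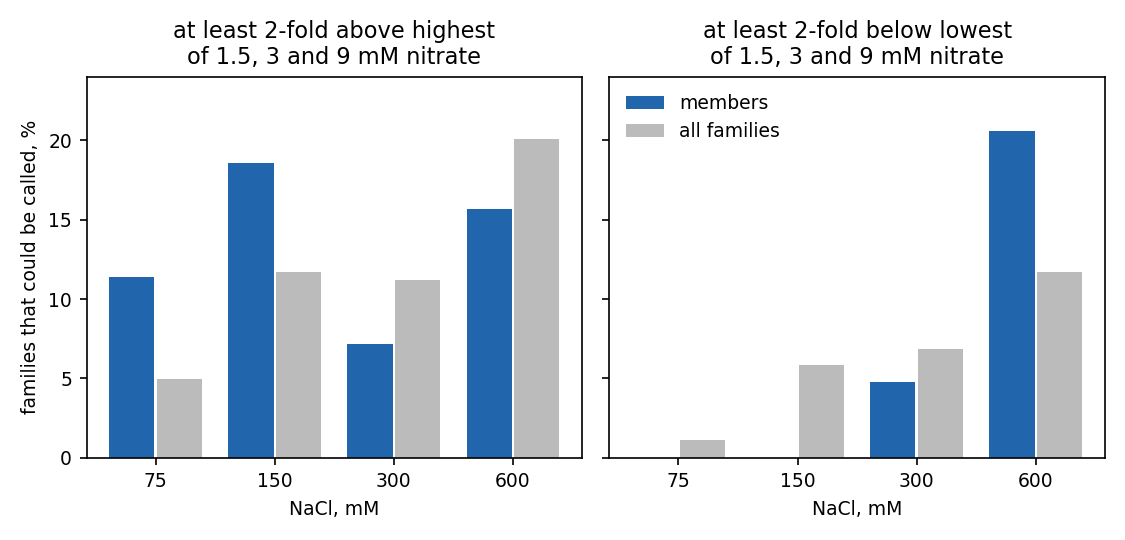
Share of families at least 2-fold above the highest (left) or below the lowest (right) of the libraries of 1.5, 3 and 9 mM nitrate, for each NaCl concentration, with members in blue and all families in grey. Members at 75 and 150 mM show 11.4% and 18.6% above, against 4.94% and 11.7% of all families, and 0 below. The rule did not use those NaCl libraries but did use the reference libraries. At 600 mM 20.6% of the members that could be called are below, against 11.7% of all such families.

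The 29 families removed by the NaCl part of the rule had a similar difference of low from higher nitrate and, by construction, high values at 300 and 600 mM NaCl. The median of that difference was 2.29 log2 units, against 2.05 in the 70 members. The low-nitrate libraries belong to the rule that chose both groups, so comparisons among them are descriptions. The removed families had a median of 1.075 log2 units for 0 minus 0.75 mM, against 0.512 in the members and 0.069 over all families. At least 2-fold higher at 0 than at 0.75 mM were 15 of the 29, against 13 of the 70 and 7.38% of all families. The 3 low-nitrate libraries lay within 2-fold of each other in 9 of the 29, against 43 of the 70 and 63.4% of all families. Counts of the 29 with other scalings were not computed. At 75 mM NaCl 20 of the 29 were at least 2-fold above the reference range, against 8 of the 70 and 4.94% of all families. At 150 mM 27 of the 29 were, against 13 of the 70 and 11.7% of all families. The libraries of 75 and 150 mM were outside the rule. However, the 29 were removed for high values at 300 and 600 mM NaCl over the same reference libraries. Their counts at 75 and 150 mM are therefore not independent of that choice and are descriptions only. None of these differences was tested because each concentration has 1 library.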

How the data were processed

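RNA from 10 cultures, 1 per condition, was analysed from 1 deposited table. The authors' values were recorded as signal: relative expression levels, taken as scaled for length from the deposited values, which are never negative, have 2 decimals and steps that differ between families. Library totals differ, and depth scaling is not stated. Neither FPKM nor TPM is named for them in the sources used here, and reference and family building are not given either. Tools listed without roles in the submitters' processing notes are edgeR 3.0.8, RSEM 1.2.0 and Bowtie 0.12.8. Depth per sample is unknown, so no interval or detection limit was computed. Per-library columns left unused numbered 0, and the column for 0.375 mM nitrate was matched to the library labelled 0.38 mM.

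Membership, counts and medians were computed from log2(value + 1) with Python 3.11.15, pandas 2.3.3 and NumPy 2.4.6. The code for the membership rule was run on simulated data with large planted changes and little noise. That run checked the code and does not show how the rule performs on values such as these. Counts of members below a range cover the 63 whose lowest reference value was at least 1. No test was run, because each condition has 1 library and the rule used most of the contrasts. The members, subsets and comparisons were chosen with earlier results of these data known. Named families were the 2 at each end of each comparison, with a mean value of at least 5 where differences from the control or neighbours were ranked. Any other family was picked once its values had been seen. The alternatives tried were scaling by median ratios or equal library totals, pseudocounts of 0.1 and 5, other minimum folds and filters, and omission of single libraries.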

Additional observations from a re-analysis of the deposited data

How the results depend on the processing

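Each of 22 results was recomputed under its alternatives, 104 values in all. Of these, 69 stayed within 1.5 times of the main value (or within 1.5-fold for the median), 35 moved further and 0 changed sign. Only the median could change sign, so the last number says nothing about the counts. Some of those that stayed were counts of 0 set against 0. The counts in this section are of members alone, without shares over all families. The main rule gave 70 members. Other settings gave 194 with a minimum fold of 1.5 and 20 with 4, and 45 with a pseudocount of 5. Leaving out the library of 0, 0.38 or 0.75 mM nitrate gave 122, 113 and 156, since fewer libraries had to pass. With median ratios there were 65 members, 61 of them among the 70, and with equal library totals 82, sharing 63. In all, 41 members remained under both scalings and both pseudocounts, among them all 19 with a gap of at least 2 log2 units.

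Counts with NaCl moved most. Above the range at 75, 150 and 300 mM were 8, 13 and 5 members, which became 4, 4 and 1 with median ratios, 3, 4 and 0 with equal library totals and 3, 4 and 1 with a pseudocount of 5. Against the control alone, 11 were above at 300 mM. At 600 mM, 11 became 5 with equal library totals and 4 with a pseudocount of 5. Below the range at 75 and 150 mM, 0 became 1 each against the control alone. At 300 mM, 3 below became 5 with median ratios or a pseudocount of 0.1, 6 with equal library totals, 1 with a pseudocount of 5 and 7 against the control alone. At 600 mM, 13 below became 6 with a pseudocount of 5. Members inside the range in all 4 NaCl libraries went from 34 to 55 with a pseudocount of 5, and those above in at least 1 from 26 to 13 with median ratios and 8 with equal library totals. Without the 150 mM library these 2 counts were 36 and 23. Members lower at 150 mM than at both 75 and 300 mM went from 11 to 17 with median ratios.

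Among low-nitrate results, only equal library totals moved a count past 1.5 times: at 0 against 0.75 mM, 13 higher became 7 and 2 lower became 5; the order 0 > 0.38 > 0.75 mM went from 25 to 13 members; those highest at 0.38 mM went from 26 to 49; and those at least 2-fold higher at 0.38 than at 0.75 mM from 10 to 19. Chosen after the data were seen were the alternatives for the counts inside the range in all 4 NaCl libraries and above it in at least 1, for the orders and highest values at low nitrate, for 0.38 against 0.75 mM nitrate and 600 against 300 mM NaCl, for 150 mM NaCl against its neighbours, and for the share without the 5 most abundant members. So were the omission of the 150 mM NaCl library and that of the 0.38 mM nitrate library together with median ratios, which gave 89 members. The cause of the shifts was not tested. No paired analysis was possible because each condition has 1 library. Values have no known depth, so the precision of low members such as 30064_c0 is unknown.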

Other observations

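Some families carry the same scaffold number. Of the 70 members, 5 (7.14%) shared theirs with another family, against 4.92% of all families, and no number held more than 1 member. The sources used here do not say what a shared number means. None of the partner families met the rule. Family 332_c1 had 22.2 in the control and 94.76 to 136.02 at low nitrate, while its partner 332_c0 had 188.88 in the control and 368.88, 164.98 and 334.51 at 0.75, 0.38 and 0 mM. Family 7596_c0 had 72.81, 72.23 and 49.62 at 0.75, 0.38 and 0 mM against 0.81 to 1.03 at higher nitrate, while 7596_c1 had 1.89, 0.98 and 1.6 there and was highest at 600 mM NaCl, with 8.37. The partner of 3146_c0, 3146_c2, lay between 13.64 and 21.74 in all 10 libraries. Closest to its member was 1055_c1, with 103.99, 61.93 and 211.5 at 0.75, 0.38 and 0 mM against 26.32 to 47.11 at higher nitrate, and a gap of 0.39 log2 units. The partner of 1078_c1, 1078_c0, had 77.52 to 112.49 at higher nitrate and 104.35, 213.54 and 199.59 at 0.75, 0.38 and 0 mM.

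The 5 members with every value at 1.5, 3 and 9 mM nitrate under 1.2 were 743_c0, 5938_c0, 7596_c0, 27889_c0 and 30064_c0. Only 2 members were listed at 0 in a reference library, 27889_c0 at 1.5 mM nitrate and 30064_c0 in the control, and their highest values were 7.11 and 4.85. At 600 mM NaCl 2 members were listed at 0, 30064_c0 and 9684_c0, the latter with 20.06 at 0.75 mM nitrate.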
